A study of Homo sapiens with 6 samples.

Results

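The RNA of 10 non-histone chromatin protein genes was followed in mocetinostat- and DMSO-treated TC28a2 cells. The genes are *HMGA1*, *HMGA2*, *HMGB1*, *HMGB2*, *HMGB3*, *HMGN1*, *HMGN2*, *HMGN3*, *HDGF*, and *NUCKS1*. They were taken by symbol from a table of 60623 genes, and 10 of 10 passed the expression filter, which kept 13966 genes for testing. They were picked as abundant chromatin proteins with results of the same comparison already known, so their counts, levels, and fold changes are a description and are given without a test.

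TC28a2 is an immortalized human chondrocyte line, so that each result concerns a single line in culture. Cells received mocetinostat, an inhibitor of class I histone deacetylases (HDACs), at 2 μM, or its solvent DMSO, and total RNA was collected after 24 hours. There were 3 samples per condition, from 3 independent experiments per the paper. Which samples shared an experiment is not stated. The 3 DMSO-treated libraries held from 4873426 to 11031132 counts and the 3 mocetinostat-treated libraries from 1619344 to 5089542 counts. Of 11 chondrocyte marker genes, *COL9A1*, *COL11A1*, and *SOX6* did not pass the filter and the other 8 rose in edgeR's quasi-likelihood test (adjusted p under 0.05), as did 32.9% of all genes tested. The summed level of the list went from between 117 and 141 CPM (counts scaled to a common library size) with DMSO to between 262 and 304 CPM with mocetinostat. *SOX9*, the chondrocyte transcription factor, was the most abundant of them at 106 ± 13.6 CPM (SD, n = 3) with DMSO, and its log2 fold change was 0.77. *SOX5*, its partner, had 1, 0, and 5 counts in the DMSO libraries, against 18, 10, and 7 in the mocetinostat libraries, too few with DMSO for a stable fold. Of 10 marker genes of leukocytes, endothelium, epithelium, muscle, and liver, 3 passed the filter and 2 of these rose. *EPCAM*, an epithelial adhesion molecule, had 4, 0, and 4 counts in the DMSO libraries, against 42, 17, and 11 in the mocetinostat libraries. *CDH5*, an endothelial cadherin, had a log2 fold change of 0.12 and did not pass the test. *PECAM1*, also an endothelial gene, was the other that rose. It held 10, 9, and 7 counts in the DMSO libraries, against 26, 7, and 17 in the mocetinostat libraries (log2 fold change 2.20, edgeR adjusted p = 6.17e-05). *PECAM1* was singled out after its values were seen. *CD3E* was at 0 counts in every sample, and the list summed to between 4.70 and 8.75 CPM with DMSO and between 17.4 and 23.6 CPM with mocetinostat. The part of these markers in the results that follow was not tested.

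High-mobility-group (HMG) proteins are small, abundant proteins that bind DNA or nucleosomes with little sequence preference and shape how tightly chromatin is packed. HMGA proteins bind the minor groove of AT-rich DNA through AT-hooks, HMGB proteins bend DNA with a pair of HMG boxes, and HMGN proteins bind the nucleosome itself. Several of them compete with linker histone H1 for chromatin, and many are acetylated. HMGB1 is also a mediator of inflammation once it leaves the cell. HDGF carries a PWWP domain, which binds methylated nucleosomes, and NUCKS1 is a nuclear phosphoprotein related to the DNA repair factor RAD51AP1.

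Across the 10 genes, 8 had lower RNA with mocetinostat and 2 had higher RNA, with a median log2 fold change of -1.23, against 0.00 over all genes tested. Of the 10 genes, 6 passed the thresholds of the study downward, against 8.18% of all genes tested, and 1 passed them upward, against 20.2%. These thresholds ask for an adjusted p under 0.05, here from edgeR's quasi-likelihood test, and a log2 fold change beyond 1 in size. In 7 genes every mocetinostat-treated sample lay below every DMSO-treated sample, against 32.8% of all genes, and in 2 genes every mocetinostat-treated sample lay above, against 33.7%. Because the genes were chosen on this comparison, nothing is read from these counts. In 7 of the 10 genes mean expression was in the highest 10% of the genes tested. Among the genes of that class, 8.8% passed the thresholds downward and 5.37% upward, 52.2% had every mocetinostat sample below every DMSO sample, and the median log2 fold change was -0.21. In RNA from whole cultures, fewer cells of a kind and less RNA per cell cannot be told apart.

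**Figure D1:**
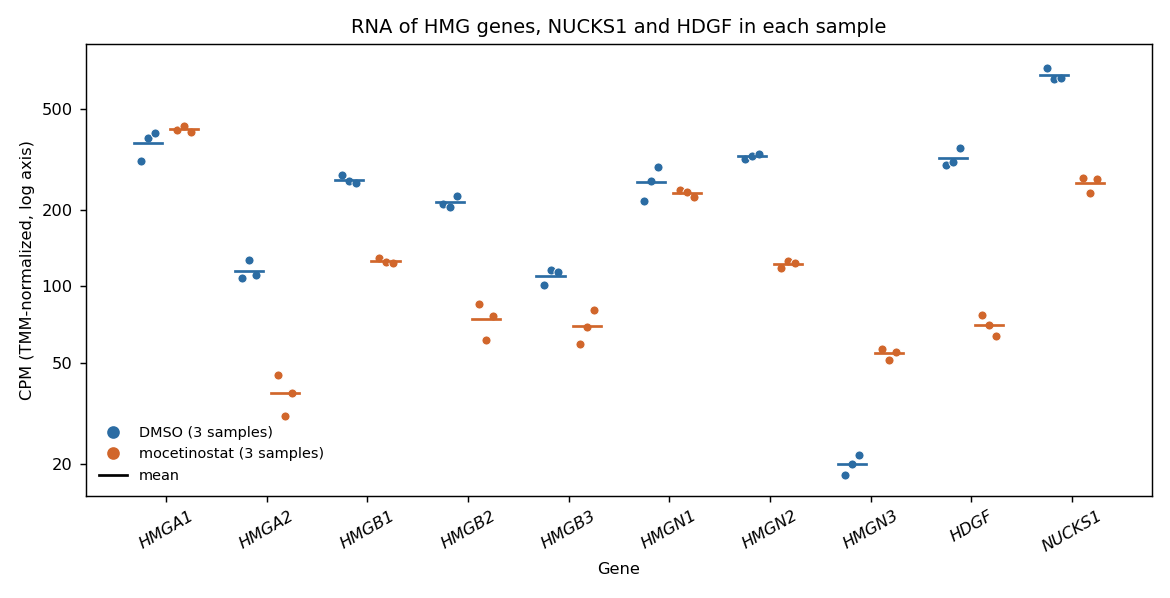
TMM-normalized CPM (log axis) of the 10 genes in the 3 DMSO-treated samples (blue) and the 3 mocetinostat-treated samples (orange), with the mean of each as a bar. The conditions overlap only in HMGN1, and HMGA1 and HMGN3 are the genes whose mocetinostat samples lie above.

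The HMGA genes went apart. *HMGA1* (ENSG00000137309, chromosome 6 of GRCh38 from 34236873 to 34246231), which encodes the HMGA protein of dividing cells, had 3451, 1851, and 2735 counts in the DMSO libraries (replicates 1 to 3 in order, as in all such lists here), against 2089, 689, and 979 in the mocetinostat libraries. Scaled for library size and composition by edgeR's TMM method, this was 312, 386, and 403 CPM with DMSO and 414, 427, and 406 CPM with mocetinostat. The mocetinostat samples all lay above the DMSO samples, but the gap was narrow, and DMSO replicate 1 was the lowest. Its mean moved from 367 ± 48.2 to 416 ± 10.7 CPM (SD, n = 3), or 0.18 ± 0.08 as log2 fold change and standard error. Without DMSO replicate 1, the log2 fold change was 0.05.

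*HMGA2* (ENSG00000149948, chromosome 12 from 65824460 to 65966291) encodes the other HMGA protein, which is abundant in embryonic cells and tumors and scarce in most adult tissue. It held 1188, 612, and 753 counts in the DMSO libraries, against 225, 50, and 92 in the mocetinostat libraries, or 107, 127, and 111 CPM against 44.6, 31.0, and 38.1 CPM. Each mocetinostat sample was lower than each DMSO sample. On average it went from 115 ± 10.7 to 37.9 ± 6.81 CPM (SD, n = 3), or -1.55 ± 0.13 as log2 fold change and standard error. The ratio of *HMGA1* to *HMGA2* counts within a library, which no scaling between libraries can change, was 2.91, 3.03, and 3.63 in the DMSO samples and 9.28, 13.8, and 10.6 in the mocetinostat samples. The mean ratio was thus 3.53 times as high with mocetinostat.

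*HMGA2* is a known target of the let-7 microRNAs, whose common seed (bases 2 to 8, in capitals) is shown here for let-7a, followed by the matches to it in the 3′ untranslated region of the canonical *HMGA2* transcript and of *HMGA1* (matching 7 bases in capitals, GRCh38, plus strand; let-7a from RefSeq).
hsa-let-7a-5p: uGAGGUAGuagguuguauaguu
HMGA2, chr12:65963313-65963319: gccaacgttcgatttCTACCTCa
HMGA2, chr12:65964548-65964554: ccccactactcaataCTACCTCt
HMGA2, chr12:65964960-65964966: ttgacttgcaaagacCTACCTCc
HMGA2, chr12:65965813-65965819: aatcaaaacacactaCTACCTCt
HMGA1, chr6:34245844-34245850: tcctctgttcacaaaCTACCTCt
*HMGA2* held 4 such matches in 2999 bases and *HMGA1* held 1 in 1347 bases, and the 3′ untranslated regions of the canonical transcripts of the other 8 genes held 0. A match is a description of the sequence, and mature microRNAs were not measured. Of 9 genes of the let-7 axis and the IGF2 mRNA-binding proteins, 7 were tested, 1 rose and 4 fell at an adjusted p under 0.05, against 32.9% and 31.4% of all genes tested, and their median log2 fold change was -0.38. *IGF2BP1*, an RNA-binding protein that stabilizes mRNAs and is itself a let-7 target, fell the most, from 195 ± 10.8 to 35.6 ± 3.56 CPM (SD, n = 3; log2 fold change -2.47, edgeR adjusted p = 1.06e-30). *IGF2BP2*, which HMGA2 is known to activate, rose from 269.8 ± 19.98 to 315 ± 17.1 CPM (SD, n = 3; log2 fold change 0.23, edgeR adjusted p = 0.0117). It lost this call without DMSO replicate 1 (adjusted p = 0.0612), without mocetinostat replicate 1 (0.0845) or 2 (0.0818), and with DESeq2 (0.0537). *LIN28A*, which blocks let-7 maturation, held 0 counts in every DMSO sample and from 1 to 4 with mocetinostat, and *LIN28B*, which does the same, held at most 8 counts in any sample. Neither passed the filter. *MIRLET7BHG*, the let-7b host gene, was among the genes that fell, from 22.6 ± 3.9 to 15.5 ± 5.56 CPM (SD, n = 3; log2 fold change -0.58, edgeR adjusted p = 0.013), and samples of the conditions overlapped. *LIN28A*, *LIN28B*, and *MIRLET7BHG* were singled out after their values were seen.

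The 3 HMGB genes were all lower with mocetinostat, by different amounts. *HMGB1* (ENSG00000189403, chromosome 13 from 30456704 to 30617597) held 3030, 1248, and 1727 counts in the DMSO libraries, against 654, 201, and 297 in the mocetinostat libraries, which was 274, 259.9, and 254 CPM against 129.7, 125, and 123 CPM. Values within each condition lay close together, and the conditions were well apart. The mean went from 263 ± 10.1 to 126 ± 3.45 CPM (SD, n = 3), or -1.06 ± 0.09 as log2 fold change and standard error, the closest of the 10 to the threshold of 1.

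*HMGB2* (ENSG00000164104, chromosome 4 from 173331376 to 173334432), which is known for its high level in dividing cells and in the superficial zone of young cartilage, held 2333, 989, and 1536 counts in the DMSO libraries, against 428, 99, and 184 in the mocetinostat libraries. This was 211, 206, and 226 CPM against 84.9, 61.4, and 76.3 CPM, with no overlap and with more spread among the mocetinostat samples. Its mean moved from 214 ± 10.6 to 74.2 ± 11.9 CPM (SD, n = 3), or -1.50 ± 0.10 as log2 fold change and standard error. *HMGB3* (ENSG00000029993, chromosome X from 150980509 to 150990771), the HMGB of stem and progenitor cells, held 1114, 556, and 776 counts in the DMSO libraries, against 300, 112, and 194 in the mocetinostat libraries, or 101, 116, and 114 CPM against 59.5, 69.4, and 80.4 CPM. The conditions did not overlap, but the mean changed less, from 110.3 ± 8.28 to 69.8 ± 10.5 CPM (SD, n = 3), or -0.68 ± 0.12 as log2 fold change and standard error. Within libraries, there were 1.23 ± 0.0919 *HMGB1* counts per *HMGB2* count with DMSO and 1.72 ± 0.269 with mocetinostat, and 2.40 ± 0.280 *HMGB1* counts per *HMGB3* count with DMSO and 1.84 ± 0.326 with mocetinostat (SD, n = 3). The *HMGB1* to *HMGB2* ratio separated the conditions, whereas the lowest *HMGB1* to *HMGB3* ratio with DMSO, 2.23, lay just above the highest with mocetinostat, 2.18.

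Extracellular HMGB1 acts through receptors and partners, of which 12 were looked up and 6 were tested. *TREM1*, *CD24*, and *CXCL12* rose and *TLR4* fell, beside 32.9% and 31.4% of all genes tested, and the median log2 fold change was 0.53. *TREM1*, a receptor that amplifies inflammation in myeloid cells, held 2, 0, and 0 counts in the DMSO libraries, against 55, 42, and 32 in the mocetinostat libraries (edgeR adjusted p = 1.49e-17). With so few DMSO counts no fold is given. *TLR4*, a Toll-like receptor through which HMGB1 signals, went from 45.7 ± 7.65 to 29.1 ± 8.07 CPM (SD, n = 3; log2 fold change -0.63, edgeR adjusted p = 0.000352), and samples of the conditions overlapped. *AGER*, which encodes the receptor RAGE, held 34, 14, and 35 counts in the DMSO libraries, against 13, 5, and 6 in the mocetinostat libraries, and its log2 fold change of -0.48 had an adjusted p of 0.380 in the edgeR test. It was singled out, like *CD24* and *CXCL12*, after its values were seen.

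HMGN proteins hold the nucleosome through a domain with a core of 8 residues that is the same in all of them. The codons of that core, read from the canonical GENCODE transcripts, are printed because the 3 HMGN genes and their relative *HMGN4* share the protein core but not the direction of change. Capitals mark bases that are identical in the 4 genes.
HMGN1, codons 19 to 26: AGgaGaTCgGCgcGgTTGTCaGCt
HMGN2, codons 23 to 30: AGaaGaTCcGCgaGgTTGTCtGCt
HMGN3, codons 25 to 32: AGacGgTCtGCcaGaTTGTCaGCg
HMGN4, codons 23 to 30: AGgaGaTCaGCtcGgTTGTCtGCt
Of the 24 bases, 15 were common to the 4 genes. *HMGN3* differed from the others at 7 to 9 bases, whereas *HMGN1*, *HMGN2*, and *HMGN4* differed from each other at 3 or 4.

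*HMGN1* (ENSG00000205581, chromosome 21 from 39342315 to 39349647) held 2393, 1248, and 1999 counts in the DMSO libraries, against 1205, 379, and 543 in the mocetinostat libraries, which was 216, 259.9, and 295 CPM against 239, 235, and 225 CPM. The mocetinostat samples fell inside the range of the DMSO samples, in which replicate 1 was again the lowest, as in *HMGA1*. The mean was 257 ± 39.1 with DMSO and 233 ± 7.13 CPM with mocetinostat (SD, n = 3), or -0.14 ± 0.09 as log2 fold change and standard error. Without DMSO replicate 1 the log2 fold change was -0.27, and without DMSO replicate 3 it was -0.05.

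*HMGN2* (ENSG00000198830, chromosome 1 from 26472440 to 26476642) held 3512, 1561, and 2262 counts in the DMSO libraries, against 594, 203, and 299 in the mocetinostat libraries, or 318, 325, and 333 CPM against 118, 126, and 124 CPM. It had the smallest spread of the 10 genes among DMSO samples, a coefficient of variation of 2.41%, and the conditions were far apart. On average it went from 325 ± 7.83 to 122 ± 4.21 CPM (SD, n = 3), or -1.42 ± 0.09 as log2 fold change and standard error. The number of *HMGN1* counts per *HMGN2* count was 0.681, 0.799, and 0.884 in the DMSO samples and 2.03, 1.87, and 1.82 in the mocetinostat samples, so that the order of the RNAs by counts turned around.

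*HMGN3* (ENSG00000118418, chromosome 6 from 79201245 to 79234689), the HMGN that also binds the thyroid hormone receptor, had the largest increase of the 10. It held 200, 96, and 147 counts in the DMSO libraries, against 287, 83, and 133 in the mocetinostat libraries, which was 18.1, 19.99, and 21.7 CPM against 56.9, 51.4, and 55.1 CPM. Each mocetinostat sample was above each DMSO sample. The mean went from 19.9 ± 1.79 to 54.5 ± 2.79 CPM (SD, n = 3), or 1.47 ± 0.15 as log2 fold change and standard error. *HMGN3* counts per count of *HMGN1* and *HMGN2* together were 0.0339, 0.0342, and 0.0345 with DMSO and 0.160, 0.143, and 0.158 with mocetinostat, a mean ratio 4.49 times as high.

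*HDGF* (ENSG00000143321, chromosome 1 from 156742109 to 156766925), first described as a secreted growth factor and abundant in the nucleus, was lower by more than any other of the 10 genes. It held 3325, 1484, and 2388 counts in the DMSO libraries, against 389, 114, and 154 in the mocetinostat libraries, or 301, 309, and 352 CPM against 77.1, 70.7, and 63.8 CPM. The lowest DMSO sample was several times the highest mocetinostat sample. Its mean moved from 321 ± 27.5 to 70.5 ± 6.65 CPM (SD, n = 3), or -2.17 ± 0.10 as log2 fold change and standard error.

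*NUCKS1* (ENSG00000069275, chromosome 1 from 205712822 to 205750182), the most abundant of the 10 by CPM with DMSO, held 7978, 3138, and 4488 counts in the DMSO libraries, against 1346, 377, and 638 in the mocetinostat libraries. This was 722, 654, and 661 CPM against 267, 234, and 264 CPM, again with no overlap. On average it went from 679 ± 37.3 to 255 ± 18.5 CPM (SD, n = 3), or -1.41 ± 0.08 as log2 fold change and standard error. There were 0.474 ± 0.0577 *HDGF* counts per *NUCKS1* count with DMSO and 0.278 ± 0.0321 with mocetinostat (SD, n = 3), so that *HDGF* was lower than *NUCKS1* by a further step within the same libraries.

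Because the changes differed, the make-up of the group differed too. The 10 genes summed to 2580, 2662, and 2772 CPM in the DMSO samples and to 1490, 1430, and 1456 CPM in the mocetinostat samples. *HDGF* and *NUCKS1* together went from 999 ± 32.4 to 325 ± 19.98 CPM, the HMGB genes from 588 ± 6.97 to 269.7 ± 12.8 CPM, the HMGN genes from 602 ± 48.7 to 409.9 ± 5.11 CPM, and the HMGA genes from 482 ± 54.2 to 454 ± 8.38 CPM (SD, n = 3). Between samples of a condition, these family sums differed less than between conditions in each family but HMGA.

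To compare levels between genes, CPM was divided by the length in kilobases of the canonical GENCODE transcript. With DMSO, the order by CPM per kilobase was *HMGN1* (202 ± 30.8), *HMGA1* (191 ± 25.1), *HMGN2* (168 ± 4.04), *HMGB2* (149 ± 7.37), *HDGF* (139 ± 11.9), *NUCKS1* (106 ± 5.84), *HMGB1* (48.2 ± 1.86), *HMGB3* (31.5 ± 2.36), *HMGA2* (28.0 ± 2.59), and *HMGN3* (20.8 ± 1.87; SD, n = 3 for each). The sample values of *HMGN1* and *HMGA1*, *HMGA1* and *HMGN2*, *HMGB2* and *HDGF*, and *HMGB3* and *HMGA2* overlapped, and the other neighbours in this order did not. With mocetinostat, *HMGA1* (216 ± 5.57) led, followed by *HMGN1* (183 ± 5.61), *HMGN2* (63.1 ± 2.17), *HMGN3* (56.9 ± 2.91), *HMGB2* (51.5 ± 8.25), *NUCKS1* (39.8 ± 2.89), *HDGF* (30.6 ± 2.88), *HMGB1* (23.1 ± 0.632), *HMGB3* (19.9 ± 2.99), and *HMGA2* (9.21 ± 1.66). There, *HMGN3* overlapped *HMGB2* and *HMGB1* overlapped *HMGB3*, and the other neighbours did not overlap. By this length, *HMGN3* moved from the last place of 10 to place 4. The share of *HMGA1* in the summed CPM per kilobase of the 10 genes was between 16.1% and 18.5% with DMSO and between 30.4% and 32.4% with mocetinostat, and that of *HMGN3* went from between 1.87% and 1.96% to between 7.83% and 8.38%. The order depends on the transcript length used. With the length of all annotated exons, *HMGN1* took place 6 with DMSO (50.97 CPM per kilobase), and *HMGA1* led in both conditions. *HMGN3* was then at place 9 with DMSO and place 3 with mocetinostat.

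**Figure D2:**
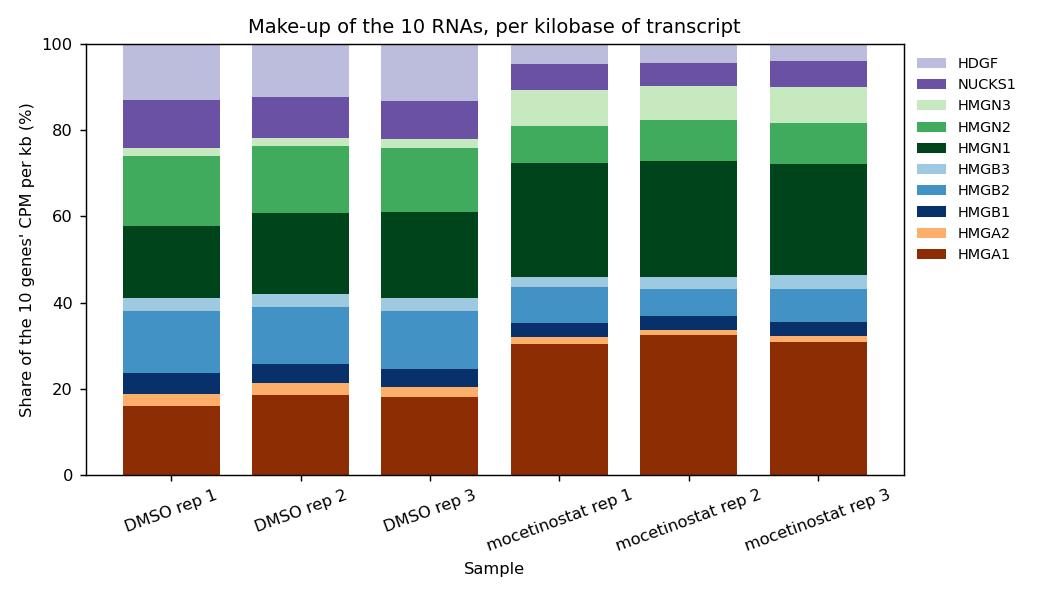
Share of each of the 10 genes in their summed CPM per kilobase of canonical transcript (%), 1 bar per sample. The HMGA1 segment is between 16.1% and 18.5% in the DMSO bars and between 30.4% and 32.4% in the mocetinostat bars, and the HMGB2, HMGN2, NUCKS1, and HDGF segments are narrower with mocetinostat.

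The direction of the smallest changes depended on the scaling. *GAPDH*, which is often used as a reference, went from 3039 ± 89.8 to 2111 ± 76.3 CPM (SD, n = 3; log2 fold change -0.53, edgeR adjusted p = 2.58e-12). Scaling each library to its *GAPDH* count moved the median log2 fold change of all genes tested from 0.00 to 0.53. On that scale *HMGN1* turned to 0.39, *HMGA1* was at 0.71, *HMGN3* at 2.01, *HMGB3* at -0.15, *HMGB1* at -0.53, and *HDGF* at -1.64. *HDGF* and *HMGA2* were then the genes past the thresholds downward, and *HMGN3* remained past them upward. Relative to the median of all genes under that scaling, *HMGN1* stayed below 0 and *HMGA1* above it. Without a filter on low counts, the median of all genes was 0.25 and *HMGA1* was at -0.07. The log2 fold changes of the other 8 genes kept their sign under the 15 alternatives tried.

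**Figure D3:**
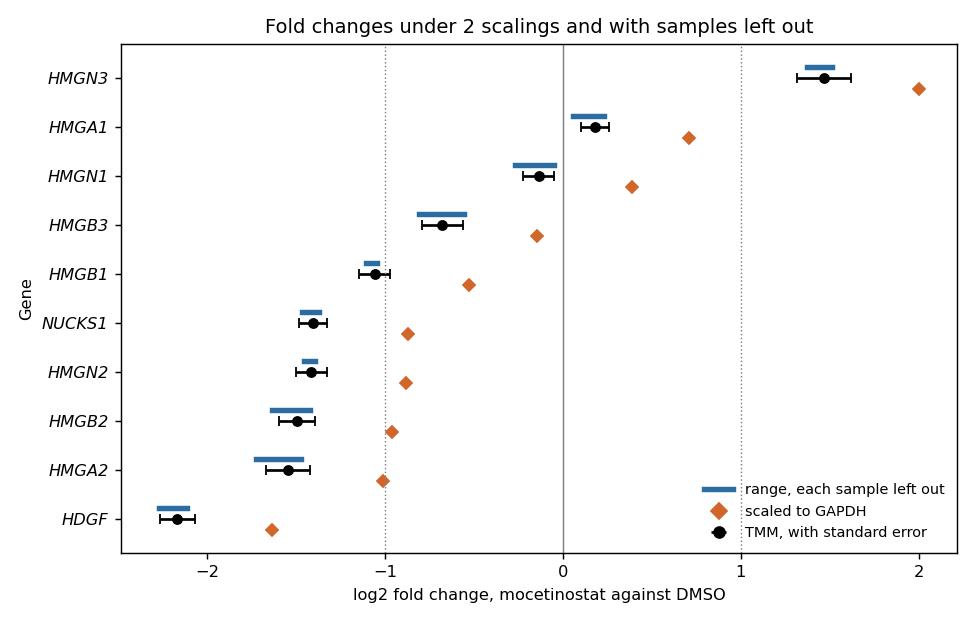
Log2 fold change of the 10 genes, mocetinostat against DMSO: TMM-normalized with its standard error (black), the range with each sample left out in turn (blue bar), and scaled to GAPDH (orange). HDGF (-2.17) and HMGN3 (1.47) are the ends of the range, and HMGN1 lies at -0.14 with TMM and at 0.39 with GAPDH scaling.

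Several of the genes have many processed pseudogenes, near-copies of their mRNA inserted elsewhere in the genome, so reads were checked for where else they could have been assigned. The table held 48 pseudogene rows named for *HMGB1*, 36 for *HMGN2*, 31 for *HMGN1*, 29 for *HMGB3*, and 8 for *HMGA1*, at most 1 for the others, and 0 for *HMGA2*. Of the 100-base windows of the canonical transcripts, the length of the reads, an exact second copy was found in GRCh38 for 39.5% in *HMGN2*, 34.4% in *HMGN1*, 19.3% in *HMGB1*, and 4.61% in *HMGA1*, and for under 1% in each of the other 6 genes. The levels of the former genes are uncertain, since the treatment of reads that map to several places is not stated in the sources used here. The share of such windows does not measure by how much, because inexact copies and uneven coverage are left out. Counts on pseudogene rows came to 8.01% of those of *HMGN2*, 5.03% of *HMGB1*, 3.93% of *HMGB3*, 2.11% of *HMGN1*, and under 1% for the others. For *HMGB1*, this share was between 3.66% and 4.23% in the DMSO samples and between 8.96% and 12.2% in the mocetinostat samples. The same ranges were 6.92% to 8.40% and 9.85% to 11.4% for *HMGN2*, and 2.87% to 3.74% and 4.12% to 9.82% for *HMGB3*. For *HMGN1* the conditions overlapped. *HMGN2P5*, a processed pseudogene on chromosome 15, held 252, 106, and 182 counts in the DMSO libraries, against 46, 18, and 28 in the mocetinostat libraries. It fell with a log2 fold change of -1.21 (SE 0.22, edgeR adjusted p = 1.12e-06), and its counts were 7.34% ± 0.643 of those of *HMGN2* with DMSO and 8.66% ± 0.830 with mocetinostat (SD, n = 3). Among the other pseudogene rows, *HMGB1P21* (85 counts over the 6 samples), *HMGN1P38* (69), *HMGB3P4* (29), *HMGA1P8* (17), *HMGB2P1* (17), and *HDGFP1* (3) held the most for their parents. With the pseudogene counts added, the log2 ratio of mean CPM was -1.37 for *HMGN2*, -0.13 for *HMGN1*, -0.61 for *HMGB3*, 0.18 for *HMGA1*, and -0.98 for *HMGB1*, which was then short of 1. Genes on the opposite strand overlap exons of *HMGN3* and *HMGA2*. *HMGN3-AS1*, whose exons cover 10.7% of those of *HMGN3*, held 16, 6, and 15 counts in the DMSO libraries, against 16, 2, and 15 in the mocetinostat libraries. Scaled for library size, this was 1.64 ± 0.507 CPM with DMSO and 3.54 ± 2.51 CPM with mocetinostat (SD, n = 3; log2 fold change 1.14, edgeR adjusted p = 0.0439), in the direction of *HMGN3* and with overlapping samples. *HMGA2-AS1*, which covers 2.55% of those of *HMGA2*, held 13 counts in all. The counting is not stated to use strand, so reads over the bases that these pairs share cannot be told apart.

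The promoters of the genes were read for motifs as a description of their sequence. Because the genes were chosen on this comparison, nothing is read from the numbers of promoters with a motif. RefSeq promoters (GRCh38.p14, 250 bases before to 50 after the start nearest the canonical start) were found for 8 of the 10 genes. The table used did not hold *HMGA2* and *HMGB2*. A CCAAT box, the 5 bases CCAAT on either strand, was in 7 of these 8 promoters and in 34.6% of the 35116 promoters in the table. It occurred 3 times in *HMGB1* and *HMGB3*, 2 times in *HMGN1* and *HMGN3*, 1 time in *HMGA1*, *HMGN2*, and *NUCKS1*, and 0 times in *HDGF*. These counts include the 50 bases after the start, and *HMGA1* held 0 in the 250 bases before it. A GC box, GGGCGG on either strand, was in 6 of the 8 promoters and in 45.0% of all of them. There were 6 in *HMGN1* (4 in the 250 bases before the start), 5 in *HMGA1*, and 0 in *HMGB1* and *HMGN3*. Of the 8, *NUCKS1* held an E2F motif (TTTCGCGC or TTTGGCGC on either strand, 1.15% of promoters) and *HMGB1* a CRE core (TGACGT, 7.98%). The letters of a TATA box (TATAAA on either strand, 11.5%) were in *HMGN2* alone. They were not within the 250 bases before its start, where a TATA box would lie. CpG dinucleotides numbered from 17 in *HMGB1* to 34 in *HMGN1*, against a median of 14 over all promoters. The 250 bases before the start are printed for the 2 promoters with the most CCAAT boxes, for *HMGN3*, which was higher, and for *HDGF*, which had no CCAAT box, 5′ to 3′ on the strand of the gene, with CCAAT and GC boxes in capitals.
HMGB1, chr13:30465937-30466186, minus strand: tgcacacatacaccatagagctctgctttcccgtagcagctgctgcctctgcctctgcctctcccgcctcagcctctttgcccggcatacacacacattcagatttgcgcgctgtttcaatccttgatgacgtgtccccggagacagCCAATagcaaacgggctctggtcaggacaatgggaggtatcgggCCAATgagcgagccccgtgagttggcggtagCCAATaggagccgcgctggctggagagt
HMGB3, chrX:150983085-150983334, plus strand: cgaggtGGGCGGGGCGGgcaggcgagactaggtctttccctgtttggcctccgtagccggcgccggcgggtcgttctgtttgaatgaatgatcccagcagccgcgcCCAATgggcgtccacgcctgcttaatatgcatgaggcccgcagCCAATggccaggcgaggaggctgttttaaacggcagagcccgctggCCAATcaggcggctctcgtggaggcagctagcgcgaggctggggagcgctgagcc
HMGN3, chr6:79234683-79234932, minus strand: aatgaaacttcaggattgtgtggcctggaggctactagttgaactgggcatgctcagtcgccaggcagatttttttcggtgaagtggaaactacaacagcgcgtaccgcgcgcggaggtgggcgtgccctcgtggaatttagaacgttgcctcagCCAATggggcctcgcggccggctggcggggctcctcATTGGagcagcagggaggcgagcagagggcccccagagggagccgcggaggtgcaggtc
HDGF, chr1:156751676-156751925, minus strand: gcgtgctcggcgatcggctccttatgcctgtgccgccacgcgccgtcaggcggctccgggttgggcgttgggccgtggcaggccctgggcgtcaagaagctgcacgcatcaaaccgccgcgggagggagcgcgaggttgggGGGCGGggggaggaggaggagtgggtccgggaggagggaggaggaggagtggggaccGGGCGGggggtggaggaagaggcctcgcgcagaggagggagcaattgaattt
The part of these motifs in the RNA changes was not tested. A match describes these letters only, and binding was not measured.

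Lists of related genes, which were also chosen with earlier results of these data known, were read from the same fit and are no independent evidence. Of 7 other genes with an HMG symbol, 5 were tested, 3 fell and 1 rose at an adjusted p under 0.05. Over all genes tested, 31.4% fell and 32.9% rose by that rule. *HMGN4*, the HMGN closest to *HMGN2*, held 615, 268, and 404 counts in the DMSO libraries, against 108, 61, and 34 in the mocetinostat libraries and fell with a log2 fold change of -1.31 (SE 0.17, edgeR adjusted p = 1.46e-10). *HMGXB4*, an HMG-box protein of nucleosome remodeling complexes, fell with a log2 fold change of -1.33 (SE 0.14, edgeR adjusted p = 8.25e-13). *HMG20B*, a subunit of the LSD1-CoREST corepressor, rose with a log2 fold change of 0.31 (SE 0.10, edgeR adjusted p = 0.00625), a call that was lost with DESeq2 (adjusted p = 0.0585) and without DMSO replicate 1 (edgeR adjusted p = 0.0953). *HMGXB3* was at -0.20 and did not pass (edgeR adjusted p = 0.115). *HMGN5*, which encodes an HMGN with a long acidic tail, held 0, 0, and 3 counts in the DMSO libraries, against 10, 0, and 5 in the mocetinostat libraries and was removed by the filter, as was *HMGB4*, a testis HMGB, with at most 1 count in a sample.

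Among 16 other genes with an HMG box outside the SOX family, 15 were tested, 8 fell and 6 rose, beside 31.4% and 32.9% of all genes tested, with a median log2 fold change of -0.25. *UBTF*, the HMG-box factor of ribosomal RNA gene transcription, fell the most, from 214 ± 29.97 to 58.3 ± 3.89 CPM (SD, n = 3; log2 fold change -1.86, edgeR adjusted p = 2.36e-25). *LEF1*, a transcription factor of the WNT pathway, rose from 5, 0, and 2 counts with DMSO to 62, 36, and 35 with mocetinostat (edgeR adjusted p = 8.66e-17), again too few with DMSO for a stable fold.

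Of 21 genes related to *HDGF* or *NUCKS1* or with a PWWP domain, 19 were tested, 11 fell and 1 rose, beside 31.4% and 32.9% of all genes tested. Under *GAPDH* scaling, which moved the median log2 fold change of all genes to 0.53, 7 fell and 6 rose. The median log2 fold change of the list was -0.45. The closest relatives of *HDGF* were unlike each other. *HDGFL3* fell from 76.5 ± 5.10 to 33.7 ± 4.51 CPM (SD, n = 3; log2 fold change -1.19, edgeR adjusted p = 4.22e-12). *HDGFL2* was at 157 ± 30.04 with DMSO and 156 ± 5.83 CPM with mocetinostat (SD, n = 3; edgeR adjusted p = 0.982), and *PSIP1*, which encodes the chromatin tether LEDGF, was at 188 ± 15.1 and 198 ± 22.3 CPM (SD, n = 3; edgeR adjusted p = 0.407). *RAD51AP1*, the relative of *NUCKS1* that acts in homologous recombination, fell the most in the list, with a log2 fold change of -2.22 (SE 0.20, edgeR adjusted p = 1.89e-16). *DNMT3B*, a DNA methyltransferase, was the gene that rose, with a log2 fold change of 1.04 (SE 0.16, edgeR adjusted p = 2.42e-08).

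Linker histones share their binding sites in chromatin with several HMG proteins, and 6 of 11 were tested. The replication-dependent genes *HIST1H1B*, *HIST1H1C*, *HIST1H1D*, and *HIST1H1E* fell, with log2 fold changes from -2.63 in *HIST1H1B* (edgeR adjusted p = 8.00e-41) to -1.43 in *HIST1H1E* (adjusted p = 6.89e-25). The replacement genes *H1F0*, the linker histone of cells that have stopped dividing, and *H1FX* rose, with log2 fold changes of 0.76 (adjusted p = 5.98e-13) and 0.50 (edgeR adjusted p = 7.19e-06). Over all genes tested, 31.4% fell and 32.9% rose at an adjusted p under 0.05. All H1 genes together summed to between 2165 and 2418 CPM with DMSO and between 1028 and 1040 CPM with mocetinostat. Per CPM of the 10 genes, H1 genes held between 0.813 and 0.872 CPM with DMSO and between 0.690 and 0.728 CPM with mocetinostat, so that neither group kept its level and the H1 sum was lower by somewhat more.

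Of 24 other abundant non-histone chromatin protein genes, 23 fell and 0 rose at an adjusted p under 0.05, with a median log2 fold change of -0.70. By that rule, 31.4% of all genes tested fell and 32.9% rose. Of the 10% of genes with the highest expression, 52.3% fell and 27.6% rose, but not every gene of the list is in that class. Under *GAPDH* scaling, which moved the median log2 fold change of all genes to 0.53, 12 genes of the list fell and 4 rose. *ANP32B*, a histone chaperone, fell the most (log2 fold change -1.86, SE 0.10, edgeR adjusted p = 3.76e-26), and *NAP1L1*, another histone chaperone, was at -0.10 and did not pass (edgeR adjusted p = 0.187). No rise was found at an unadjusted p under 0.05 either, by edgeR, and DESeq2 called 0 genes of the list higher. Of 15 proliferation genes, 14 fell and 0 rose, beside 31.4% and 32.9% of all genes tested, and under *GAPDH* scaling 7 fell and 3 rose. Their median log2 fold change was -0.73. The changes ran from *CCNA2*, cyclin A2 (-1.93, edgeR adjusted p = 7.43e-27), to *MCM6*, a subunit of the replicative helicase, which was at -0.04 and did not pass (adjusted p = 0.764). The sum of the proliferation genes was between 5610 and 5768 CPM with DMSO and between 3241 and 3405 CPM with mocetinostat. Several of the 10 genes, *HMGB2* among them, are known to be higher in dividing cells. The part of proliferation in their values was not tested.

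**Figure D4:**
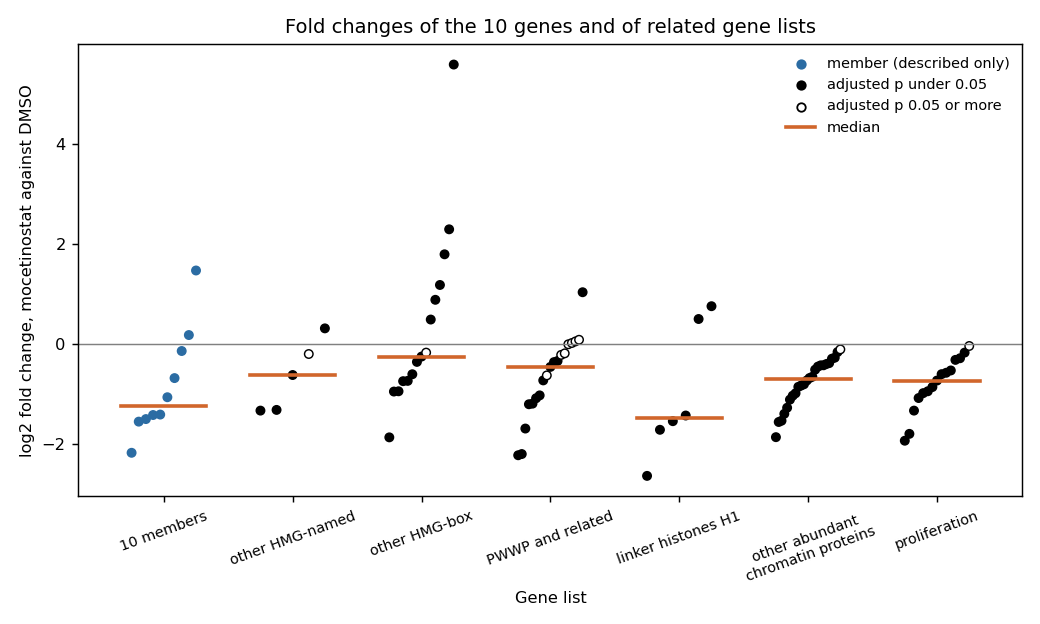
Log2 fold changes (mocetinostat against DMSO) of the 10 genes (blue) and of genes tested in 6 related lists (filled, adjusted p under 0.05 in edgeR's quasi-likelihood test; open, 0.05 or more), with the median of each list in orange. The medians are -1.23 for the 10 genes, -1.48 for linker histones H1, and between -0.73 and -0.25 for the other lists.

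The study also measured proteins of TC28a2 cells under the same treatment by mass spectrometry, and its lists of changed proteins were set beside the RNA by gene symbol, without their values. Proteins entered its lists at a false discovery rate under 0.05, with no fold-change threshold named, unlike the RNA thresholds used here. The share of all measured proteins in each list was not compared, so nothing is read from the numbers of genes listed. HDGF, HMGB1, and HMGB2 are in the list of downregulated proteins, and their RNA was lower. HMGA1, HMGA2, and NUCKS1 are in the list of upregulated proteins. Their RNA went different ways, since that of *HMGA2* and *NUCKS1* was lower in each mocetinostat sample than in each DMSO sample and that of *HMGA1* was slightly higher. HMGB3, HMGN1, HMGN2, and HMGN3 are in neither list, and whether they were among the proteins measured was not analysed here.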

How the data were processed

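RNA-Seq was analyzed in TC28a2 cells treated with mocetinostat or DMSO, 3 samples per condition, grouped by their titles. The authors deposited raw read counts per gene, not normalized. Per the methods of the paper, libraries were made from 20 ng of total RNA, single reads of 100 bases were trimmed, ribosomal RNA reads were removed with SortMeRNA, and the rest were aligned to GRCh38 (Ensembl release 98) with STAR and assigned to genes with featureCounts. The submitters' processing notes name STAR 2.6.1d, featureCounts 1.6.4, and DESeq2 1.20.0. The strand setting and the treatment of reads that map to several genes are not given in the sources used here.

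From the counts, edgeR 4.0.16 (limma 3.58.1, R 4.3.3) was used. filterByExpr (minimum count 10) left 13966 of 60623 genes, libraries were scaled by TMM, and the package fitted its quasi-likelihood test with treatment as the only term. p-values were adjusted over all genes tested by the Benjamini-Hochberg method. Standard errors are the log2 fold change divided by the square root of the F statistic. CPM values use the TMM-scaled library sizes. Replicate pairs within a condition differed by more than sampling noise (chi-square per degree of freedom from 1.96 to 7.19), and each sample was counted as a replicate. For a single gene, the smallest two-sided p of an exact permutation test on 3 against 3 samples is 0.1. Totals ranged from 1619344 to 11031132 counts. The lowest count of the 10 genes in a sample was 50. Reads carry no molecular identifiers.

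The 10 genes and the related lists were chosen with earlier results of these data known. Genes named are the 10, the tested genes of the HMG-named and H1 lists, *HDGFL2*, *HDGFL3*, *PSIP1*, and *RAD51AP1*, the tested gene with the highest and the lowest log2 fold change of each other list, the pseudogene row with the most counts of each parent, overlapping opposite-strand genes, and *GAPDH*; others are marked, and 1 gene of the HMG-named list is not reported here. Positions, transcripts, and exons are from GENCODE 44 on GRCh38, to which 99.5% of the genes were matched by identifier, and promoters and let-7a are from RefSeq. Exact second copies were sought in the main chromosomes on both strands. The 15 alternatives were DESeq2 1.42.0, RLE size factors, library size only, *GAPDH* scaling, no filter, a stricter filter of 10 counts per sample, the replicate block, glmTreat, thinning of every library to 1619344 counts, and leaving out each sample. The alternative with pseudogene counts was added after seeing the data. Simulated counts served to test the model code. Python 3.11.15, pandas 2.3.3, and matplotlib 3.10.9 made summaries and figures.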

Additional observations from a re-analysis of the deposited data

How the results depend on the processing

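Genes past the thresholds upward (URGs) and downward (DRGs) numbered 2827 and 1142. They were 4425 and 284 under *GAPDH* scaling, 1620 and 704 under the filter of 10 counts per sample, and there were 2120 DRGs without a filter and 465 with glmTreat, which tests against a log2 fold change of 1. Among the 10 genes, *HMGN1* turned to 0.3882 under *GAPDH* scaling and *HMGA1* to -0.0704 without a filter, and no other sign changed. *HMGB1* was no longer past the thresholds with glmTreat, under the filter of 10 counts per sample, after thinning, or under *GAPDH* scaling, and the latter also removed *HMGB2*, *HMGN2*, and *NUCKS1*.

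Under *GAPDH* scaling, the genes of the lists that rose and fell at an adjusted p under 0.05 changed as follows: 2 other HMG-named genes rose, 3 other HMG-box genes fell, 6 HDGF-related or PWWP genes rose and 7 fell, 4 other abundant chromatin protein genes rose and 12 fell, 0 HMGB1 receptor genes fell, 2 let-7 axis genes fell, and 3 proliferation genes rose and 7 fell. With glmTreat, 0 other HMG-named, HDGF-related, H1, and let-7 axis genes rose, 3 HMG-box genes rose and 1 fell, 3 HDGF-related genes fell, 5 abundant chromatin protein genes fell, 0 HMGB1 receptor genes fell, 1 let-7 axis gene fell, and 3 proliferation genes fell. Without a filter, 1 H1 gene rose, and 5 HMGB1 receptor genes rose there and with DESeq2. With DESeq2, 0 other HMG-named genes rose. With each sample left out in turn, other HMG-named genes that rose numbered from 0 to 2 and let-7 axis genes from 0 to 1. The shares of all genes that rose or fell by this rule under each setting are not given here, so nothing is read from these counts. Under *GAPDH* scaling, the median log2 fold change of all genes was itself 0.53.

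The correlations of the deviations of same-numbered samples from their group means were 0.00779, 0.0116, and -0.0162 over 13966 genes. No pairing by replicate number showed in them, but with 3 samples per condition and libraries of unlike depth they cannot exclude one. The fit with the replicate block gave 2798 URGs and 1133 DRGs and left the same 6 and 1 of the 10 genes past the thresholds. The shallowest library, mocetinostat replicate 2, held 1619344 counts, which limits genes with few counts.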
